A study of Mus musculus with 20 samples.

Results

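AKR/N mice 12 h after heat shock of the testis are described here through 2 arrays of testes taken 12 h after 15 min at 43 °C, set against 2 arrays of unheated AKR/N controls. These 4 arrays were chosen by their labels alone, out of 20 in all. The mice of both inbred strains, AKR/N and C57BL/6, were 8 weeks old, and RNA of their whole testes was read on the Affymetrix Mouse Genome 430 2.0 chip, in which a set of short probes reads each transcript. Each strain had heated groups at 8, 10, 12 and 24 h and unheated controls, with 2 arrays a group. The labels name no transgene or deletion in either strain. No sampling time is given for the controls, and in any comparison with them heat and the time of sampling cannot be told apart. The labels do not say whether both arrays of a group stem from different animals. The p-values therefore speak of the spread between arrays, part or all of which may be technical. A whole testis is a mixture of germ cells and somatic cells, so fewer cells of a type and less RNA per cell cannot be told apart.

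The mammalian testis works below body temperature, and a brief exposure to a temperature above that of the body damages spermatogenesis, with spermatocytes and early spermatids known as its most sensitive cells. Heat unfolds proteins. The transcription factor HSF1 then binds heat shock elements, repeats of the letters GAA and TTC in alternating orientation, and raises transcription of the genes for chaperones, proteins that refold or hold damaged ones. Oxidative damage and unfolded protein in the endoplasmic reticulum have their own sets of responding genes, as has the tumour suppressor p53.

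The chaperone genes Hspd1 and Hspe1, whose products form the folding chamber of mitochondria and its lid, lie head to head on chromosome 1 and rose together here, so their common promoter is shown. The window runs over 250 bases before and 50 after the start of Hspe1, on the plus strand, at chr1:55087898-55088197 of GRCm38.p6, as RefSeq gives it. Capitals mark matches to GAANNTTCNNGAA, 3 alternating units of a heat shock element, searched on both strands.
Hspe1: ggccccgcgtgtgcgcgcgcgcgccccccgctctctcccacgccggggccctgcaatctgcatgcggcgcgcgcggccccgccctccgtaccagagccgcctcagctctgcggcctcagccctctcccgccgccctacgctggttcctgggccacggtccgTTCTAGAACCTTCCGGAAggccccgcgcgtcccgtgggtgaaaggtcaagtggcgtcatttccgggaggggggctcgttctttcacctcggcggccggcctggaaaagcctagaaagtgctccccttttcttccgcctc
The capitals hold 2 overlapping matches, which begin at −89 and −84 bases from the start of Hspe1. The same element stands at −144 and −139 in the window of an Hspd1 start on the minus strand, chr1:55087883-55088182. Hsph1, a cofactor that swaps the nucleotide of Hsp70 chaperones, has 1 match that begins 15 bases after the start, inside the transcript, in a minus-strand window on chromosome 5, chr5:149636266-149636565.
Hsph1: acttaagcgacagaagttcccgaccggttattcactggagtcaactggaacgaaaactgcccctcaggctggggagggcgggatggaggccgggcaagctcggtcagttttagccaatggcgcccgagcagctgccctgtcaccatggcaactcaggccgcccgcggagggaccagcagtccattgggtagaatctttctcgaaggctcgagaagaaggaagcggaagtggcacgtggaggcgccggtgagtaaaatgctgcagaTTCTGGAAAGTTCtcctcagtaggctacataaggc
A match of these letters is a description of the window and not a binding site. Such a match was found for 4 of the 489 genes that were higher at 12 h and had a window (0.818%: Gm364, Hspd1, Hspe1 and Hsph1), for 1 of 396 that were lower (0.253%) and for 179 of all 27025 genes with a window (0.662%). The windows of Hspa1a, Hspa1b and Hspb1 held none.

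The median signal of an array was 31.2 and 28.5 at 12 h, against 31.1 and 28.2 in controls. The ratio of 3′ to 5′ signal of the actin control probes, which rises as RNA degrades, was 2.74 and 2.62 at 12 h, against 2.92 and 2.39 in controls. Replicates correlated across genes with r = 0.978 at 12 h and 0.981 in controls. A change is given throughout as a log2 difference of group means of signal + 16, with its standard error (SE), and understates the fold of weak genes. A gene was called when limma's adjusted p was under 0.05, and "rose" and "fell" are used of called genes only. A signal under 17.5, the limit of the filter on weak genes, is called dim below.

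Of 15762 genes tested, 1103 were called at 12 h (7.00%), 599 of them higher (3.80%) and 504 lower (3.20%) than in controls. The median change of all genes was −0.01, and 231 called genes had changed at least 2-fold. Control means were dim for 58 of the genes that rose, 8 of which passed the filter through the 12 h group only, and 12 h means were dim for 42 of those that fell. The number of calls rests on single arrays. It was 171 without replicate 1 of 12 h, 359 without replicate 1 of the controls, 471 without replicate 2 of the controls and 878 without replicate 2 of 12 h. A set of 126 genes was called whichever of the 4 arrays was left out, 91 higher and 35 lower, a count chosen after seeing the data. With only the 4 arrays themselves in the fit, 9 genes were called: Cdkn1a, Cdr2l, Cryab, Hmox1, Hspb1, Hspd1, Hspe1, Tnfrsf12a and Vapb.

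**Figure D1:**
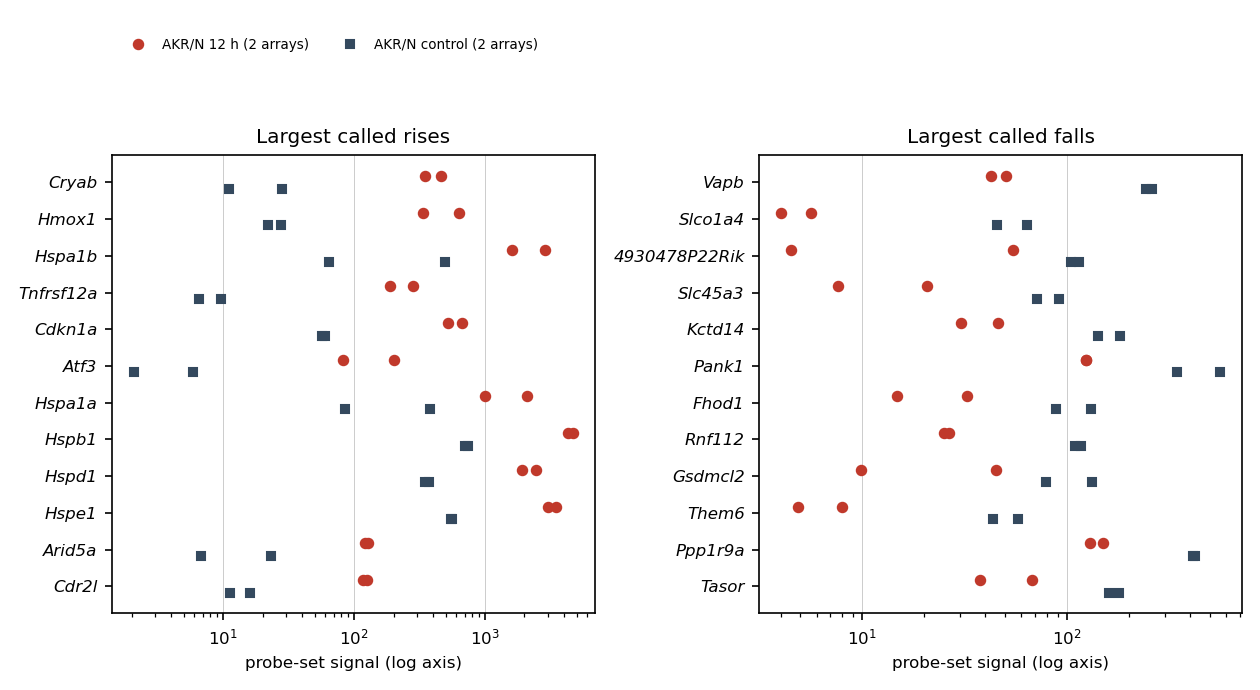
Probe-set signal (log axis) of the 12 genes with the largest called rises and the 12 with the largest called falls, for each of the 2 AKR/N 12 h arrays (circles) and the 2 AKR/N control arrays (squares). The rule that chose these genes asked for arrays that do not overlap, and for Hspa1b, Hspa1a and 4930478P22Rik 2 arrays of 1 group stand far apart.

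The list of heat shock chaperones held the largest rise, that of Cryab, and several other large ones. Of the 24 tested genes of this list, 10 rose and 0 fell, against 3.80% of all genes that rose, and the median change of the list was 0.44. This list and those below were chosen with earlier results of these data known, so their counts are descriptions and not tests. Cryab, a small chaperone of muscle and eye lens that holds unfolded proteins, had signals of 462 and 347 at 12 h, against 11.1 and 28.3 in controls. Both heated arrays were over 10 times the higher control, a change of 3.59 (SE 0.23, adjusted p = 4.05e-06). A second, weaker probe set of Cryab gave 3.14 and another −0.01.

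Hspb1, the other major small chaperone, gave 4662 and 4297 at 12 h, against 739 and 705 in controls (change 2.61, SE 0.15, adjusted p = 1.83e-06). Hspd1 had 2459 and 1926 at 12 h, against 347 and 371 in controls (2.55, SE 0.17, adjusted p = 4.05e-06). Hspe1, which shares the promoter shown above, had 3456 and 3048 at 12 h, against 556 and 550 in controls (2.52, SE 0.19, adjusted p = 1.18e-05). In all 3 genes the arrays within a group lay close together and the groups far apart, and the pair of mitochondrial genes moved by nearly the same amount. Their calls held without any 1 of the 4 arrays.

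Hspa8, the constitutive Hsp70 chaperone of the cytosol, had 5288 and 5189 at 12 h, against signals of 1612 and 1615 in controls, where it was already high (1.69, SE 0.11, adjusted p = 4.05e-06). The inducible Hsp70 genes Hspa1a and Hspa1b are near-identical neighbours on chromosome 17, and their probe sets cannot be assumed to tell them apart. Hspa1b had 2874 and 1597 at 12 h, against 64.7 and 493 in controls (3.41, SE 0.66, adjusted p = 0.01). Hspa1a had 2108 and 1008 at 12 h, against 85.2 and 383 in controls (2.88, SE 0.67, adjusted p = 0.0234). Replicate 2 of the controls thus carried several times the signal of replicate 1 in both genes. The call of Hspa1b was lost without replicate 1 of 12 h (2.99, adjusted p = 0.0991) and without replicate 1 of the controls (2.08, adjusted p = 0.063). That of Hspa1a was lost without the same arrays (2.35, adjusted p = 0.175, and 1.89, adjusted p = 0.176).

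Hsph1 rose by less, with 767 and 674 at 12 h, against 365 and 324 in controls (1.03, SE 0.17, adjusted p = 0.00453; 0.94 with adjusted p = 0.0579 without replicate 1 of 12 h). A second probe set of Hsph1 gave 2.18. Hspb8, a small chaperone that works with Bag3, and Dnajb4, an Hsp40 cofactor, rose by 1.63 and 0.40; both were named after their values were seen. The other 14 members were not called. Among them Dnajb1, the main Hsp40 cofactor of Hsp70, had 2650 and 2582 at 12 h, against 2302 and 2627 in controls, so that the groups overlapped (0.09, adjusted p = 0.736). Hsp90aa1 (−0.12), Hspa4 (−0.01) and the mitochondrial Hspa9 (−0.01) were also uncalled, and were likewise named after their values were seen. Leaving out 1 array left 5 to 9 members called, the fewest without replicate 1 of 12 h.

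Of the 12 tested chaperones that belong to the testis itself, 0 rose and 0 fell, with a median of 0.10. Over all genes 3.80% rose and 3.20% fell, so few calls would be looked for in a list of this size. Hspa2, the Hsp70 chaperone of meiotic spermatocytes, had 1663 and 1703 at 12 h, against 2563 and 2478 in controls. Its arrays did not overlap and its change of −0.58 (SE 0.18) missed the threshold (adjusted p = 0.0626). Hspa1l, the Hsp70 chaperone of spermatids, had 3127 and 3196 at 12 h, against 2411 and 2468 in controls (0.37, adjusted p = 0.0683).

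Genes of antioxidant defence rose in 6 of 20 cases and fell in 0, against 3.80% of all genes that rose, with a median of 0.36. Hmox1, which degrades haem, had 633 and 337 at 12 h, against 27.9 and 22.1 in controls (3.55, SE 0.40, adjusted p = 0.000525). Txnrd1, the reductase of cytosolic thioredoxin, had 771 and 643 at 12 h, against 206 and 179 in controls (1.79, SE 0.16, adjusted p = 5.77e-05). Txn1, thioredoxin itself, had 998 and 1026 at 12 h, against 565 and 488 in controls (0.93, SE 0.13, adjusted p = 0.00174). These 3 genes stayed called whichever array was left out, and without replicate 1 of 12 h they were the only calls of the list. Gclc, Nfe2l2 and Srxn1, which make glutathione, switch on such genes and repair peroxiredoxins in that order, rose by 0.86, 0.59 and 0.70. Srxn1 lost its call without replicate 1 of 12 h (0.67, adjusted p = 0.111) and without either control (0.75 and 0.64, adjusted p = 0.0638 and 0.0844), while its other probe sets gave 0.53, 1.18 and 2.96.

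Of 25 glutathione transferases and detoxifying enzymes, 4 rose and 0 fell, against 3.80% of all genes that rose. Cbr3, a carbonyl reductase, was the strongest, with 171 and 184 at 12 h, against 21.1 and 36 in controls (2.14, SE 0.37, adjusted p = 0.00588; 1.90 with adjusted p = 0.0539 without replicate 1 of the controls). Akr1b8, Gstp1 and Adh5 rose by 0.82, 0.61 and 0.49, and each of these calls was lost in all 4 fits that left out 1 array, with adjusted p up to 0.196, 0.207 and 0.15. Among 23 genes of the proteasome and ubiquitin system 3 rose and 0 fell, to be read against the same 3.80%. Sqstm1, which carries ubiquitinated proteins to autophagy, had 1114 and 1007 at 12 h, against 337 and 310 in controls (1.66, SE 0.16, adjusted p = 0.000125). The proteasome subunits Psmd11 and Psma7 changed by 0.60 and 0.54 and lost their calls without replicate 1 of 12 h (adjusted p = 0.093 and 0.0732) and without replicate 1 of the controls (0.0503 and 0.135), Psma7 also without replicate 2 of 12 h (0.0783).

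In the unfolded protein and integrated stress response, 6 of 28 genes rose and 0 fell, against 3.80% of all genes that rose, with a median of 0.20. Xbp1, the transcription factor that IRE1 activates by splicing, had 505 and 358 at 12 h, against 126 and 116 in controls (1.69, SE 0.18, adjusted p = 0.000362). It was the only member called whichever array was left out, and 1 of its 3 other probe sets gave −0.12 where the others gave 1.46 and 1.26. Atf4, the factor translated when initiation slows, had 572 and 483 at 12 h, against 248 and 283 in controls (0.95, SE 0.18, adjusted p = 0.0105), a call lost without replicate 1 of either group (0.83 and 0.86, adjusted p = 0.101 and 0.075). Atf3, which ATF4 and stress kinases induce, had 203 and 82.1 at 12 h, against 2.08 and 5.84 in controls, where it was dim. Its change of 2.88 (SE 0.61, adjusted p = 0.0154) lost its call without replicate 1 of 12 h (2.30, adjusted p = 0.142) and without either control (2.75 and 3.02, adjusted p = 0.0872 and 0.0582). Ppp1r15a, Pdia3 and Hspa5 rose by 1.12, 0.55 and 0.51. Hspa5, the chaperone that defines the response in the endoplasmic reticulum, was thus among the smallest called changes of the list, and Ddit3 was not called (−0.12).

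The p53 target list had the highest median of the 32 lists examined, 0.78, with 9 of 21 genes higher and 0 lower. Over all genes 3.80% were higher. Cdkn1a, the inhibitor of cyclin-dependent kinases, had 668 and 521 at 12 h, against 56.6 and 59.9 in controls (3.03, SE 0.26, adjusted p = 4.54e-05). Ccng1, a cyclin that p53 induces, had 424 and 332 at 12 h, against 109 and 126 in controls (1.55, SE 0.22, adjusted p = 0.00194). Both were called whichever array was left out, and they were the 2 calls that remained without replicate 1 of 12 h. Btg2, which slows proliferation, had 580 and 340 at 12 h, against 127 and 65.2 in controls (2.09, SE 0.38, adjusted p = 0.00755). It lost its call without replicate 1 of 12 h (1.72, adjusted p = 0.0889) and without replicate 2 of the controls (1.68, adjusted p = 0.0615). Gadd45b rose by 1.14 (SE 0.22, adjusted p = 0.01), and its call was lost without replicate 1 of 12 h (0.90, adjusted p = 0.108) and without replicate 1 of the controls (1.09, adjusted p = 0.0635). Phlda3, Plk2, Aen, Gadd45a and Pmaip1 rose by 1.25, 1.10, 0.88, 0.81 and 0.78. Several of these, Gadd45b and Btg2 among them, also answer to stress kinases without p53.

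Of 27 genes of the apoptosis machinery, 0 rose and 1 fell, with a median of 0.08, where 3.80% of all genes rose and 3.20% fell. Bik, a killer protein of the endoplasmic reticulum, had 13.7 and 25.4 at 12 h, against 40.4 and 53.5 in controls (−0.84, SE 0.21, adjusted p = 0.0295). That call was lost without replicate 1 of 12 h (−0.60, adjusted p = 0.223) and without either control (−0.99 and −0.69, adjusted p = 0.0645 and 0.152). Bcl2l11, the killer protein Bim, had 202 and 117 at 12 h, against 129 and 114 in controls, with overlapping groups (0.31, adjusted p = 0.523). Fas, the death receptor, had 29.2 and 20.5 at 12 h, against 2.9 and 10.6 in controls (0.86, adjusted p = 0.0593).

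Immediate early and inflammatory genes had the second highest median, 0.72, and 5 of 27 rose while 0 fell, against 3.80% of all genes that rose. Tnfrsf12a, the receptor of the cytokine TWEAK, had 281 and 188 at 12 h, against 9.64 and 6.52 in controls, where it was dim (3.36, SE 0.36, adjusted p = 0.000411). Maff, a small bZIP factor, had 85.9 and 50 at 12 h, against 7.44 and 2.31 in controls (1.99, SE 0.31, adjusted p = 0.0032). Ier3, an early gene induced by stress and cytokines, had 155 and 132 at 12 h, against 47.9 and 25.5 in controls (1.63, SE 0.25, adjusted p = 0.00293). These 3 stayed called whichever array was left out. Atf3, described above, and Jund (0.73) were the other calls. Egr1, a rapid response factor, had 794 and 461 at 12 h, against 461 and 214 in controls, a difference within the spread of the replicates (0.91, SE 0.72, adjusted p = 0.48).

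**Figure D2:**
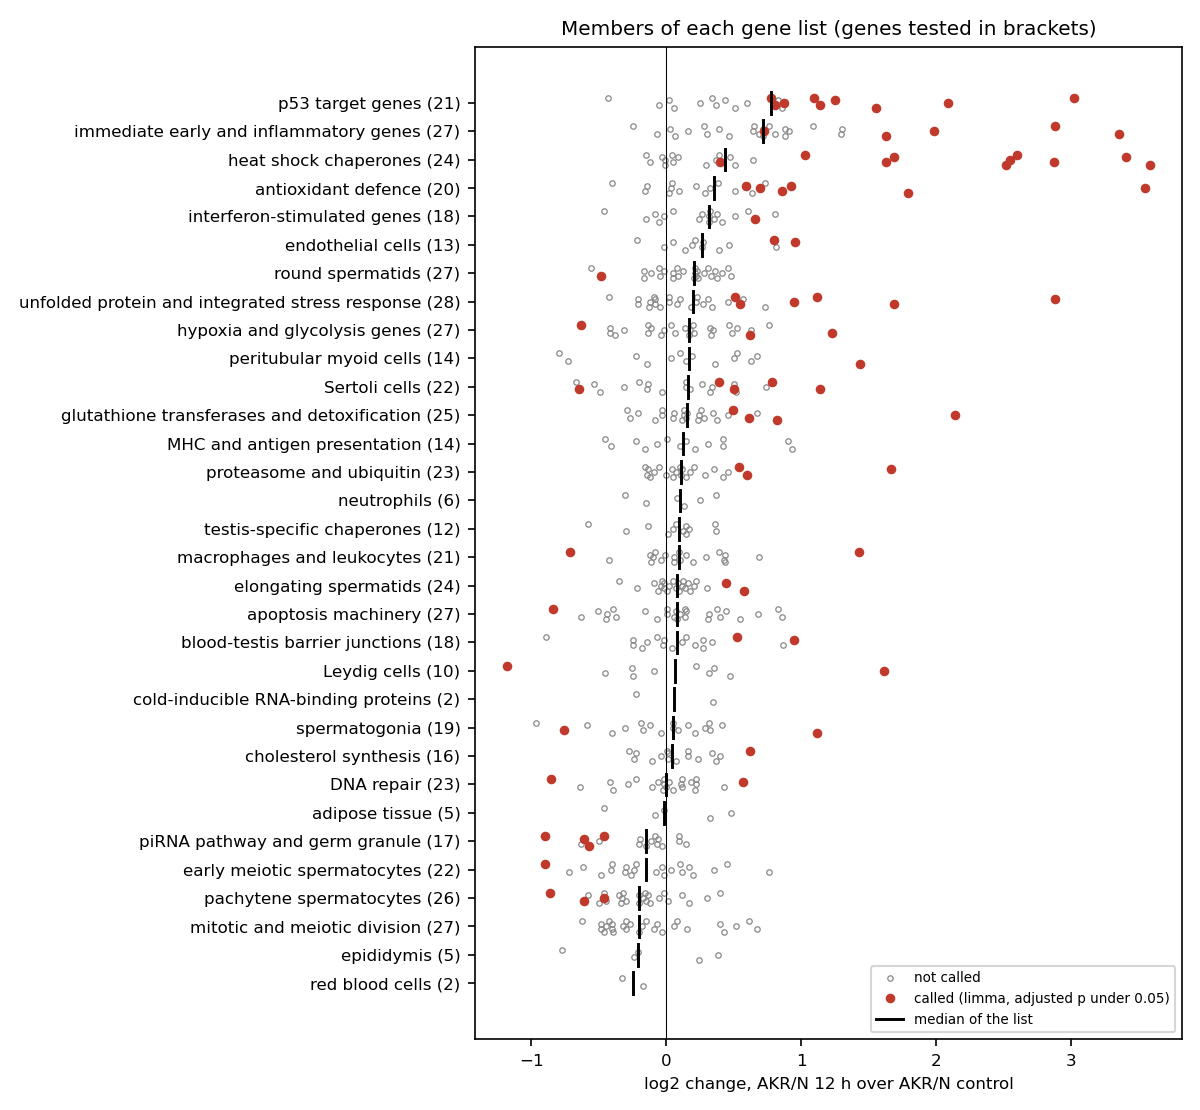
Log2 change of AKR/N 12 h over AKR/N control for every tested member of 32 gene lists, ordered by the list's median (black bar); red points were called by limma and open points were not. The stress lists reach far to the right, up to 3.59 for Cryab, while the spermatocyte and piRNA lists have their medians between −0.20 and −0.15.

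Other large rises lay outside these lists. Arid5a, an RNA-binding protein that stabilises inflammatory transcripts, had 128 and 121 at 12 h, against 6.79 and 23.3 in controls (2.23, SE 0.29, adjusted p = 0.000992). Cdr2l had 125 and 117 at 12 h, against 16 and 11.3 in controls (2.21, SE 0.44, adjusted p = 0.0113), while its other probe set gave 0.01. The call of Cdr2l was lost without replicate 1 of 12 h (2.17, adjusted p = 0.0846) and without either control (2.32 and 2.10, adjusted p = 0.0513 and 0.0626). Among the 91 genes that stayed higher whichever array was left out were Ctla2a (2.07), a protease inhibitor, Osmr (1.98), the receptor of oncostatin M, Tgm2 (1.79), a transglutaminase, and Jak1 (1.76), a cytokine receptor kinase. These last 4 were named after their values were seen.

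The falls were smaller than the rises, the largest being −2.09. Vapb, a protein that ties the endoplasmic reticulum to other membranes, had 42.8 and 50.3 at 12 h, against 259 and 243 in controls (−2.09, SE 0.26, adjusted p = 0.0008). Its other probe sets gave 0.39 and 0.28, so the probe sets of Vapb disagreed. Slco1a4, a transporter of organic anions, had 5.63 and 4.03 at 12 h, where it was dim, against 63.9 and 45.6 in controls (−1.75, SE 0.20, adjusted p = 0.000612). Pank1, a kinase of coenzyme A synthesis, had 124 and 123 at 12 h, against 559 and 343 in controls (−1.70, SE 0.21, adjusted p = 0.0008), and its other probe sets also gave negative values of −0.53, −1.06 and −1.51. Rnf112, a RING finger protein, had 26.5 and 25.1 at 12 h, against 110 and 117 in controls (−1.63, SE 0.24, adjusted p = 0.00235). These 4 calls held whichever array was left out.

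The other 8 of the 12 largest falls each lost the call in at least 1 such fit. Kctd14 (−1.72) lost it without replicate 1 of the controls (−1.56, adjusted p = 0.0652), and 2 of its other probe sets gave 0.17 and 0.08 where another gave −1.42. The uncharacterised transcript 4930478P22Rik had 4.5 and 54.7 at 12 h, against 114 and 105 in controls, and its change of −1.72 came to −0.83 without replicate 1 of 12 h (adjusted p = 0.174). Slc45a3 (−1.72), Fhod1 (−1.68), Gsdmcl2 (−1.58), Them6 (−1.56) and Tasor (−1.47) had adjusted p of 0.188, 0.122, 0.101, 0.0624 and 0.182 without replicate 1 of 12 h. Ppp1r9a (−1.47), a scaffold of the actin skeleton, lost its call in all 4 such fits, with adjusted p up to 0.0685. Among the 35 genes that stayed lower whichever array was left out were Ube2s (−1.42), a ubiquitin-conjugating enzyme of the anaphase-promoting complex, Uhrf1 (−1.32), which keeps DNA methylation through replication, and Gldc (−1.24), a glycine-cleaving enzyme. These 3 were named after their values were seen.

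In the piRNA pathway and germ granule, which silence transposons in spermatocytes, 4 of 17 genes fell and 0 rose, against 3.20% of all genes that fell, and the median was −0.15. Pld6, a mitochondrial nuclease that helps form piRNAs, had 189 and 210 at 12 h, against 435 and 339 in controls (−0.90, SE 0.16, adjusted p = 0.00624). Ddx4, the germ cell helicase, had 1709 and 1834 at 12 h, against 2630 and 2656 in controls (−0.57, SE 0.11, adjusted p = 0.0109). Piwil1, the piRNA-binding protein of pachytene spermatocytes, had 671 and 880 at 12 h, against 1208 and 1158 in controls (−0.61, SE 0.17, adjusted p = 0.0464). Tdrd5, a scaffold of the granule, changed by −0.46 (adjusted p = 0.049). In all 504 genes that fell the arrays of the groups did not overlap, so for single members this adds nothing to the call. The arrays of the groups did not overlap in any of these 4, and none of the 4 was still called without replicate 1 of 12 h, where adjusted p was 0.0684 for Pld6, 0.094 for Ddx4, 0.289 for Piwil1 and 0.275 for Tdrd5. Without replicate 1 of the controls their adjusted p was 0.06, 0.0541, 0.171 and 0.145, and without replicate 2 that of Ddx4, Piwil1 and Tdrd5 was 0.0511, 0.119 and 0.153. With 1 of the other arrays left out, up to 5 members were called.

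Against 3.20% of all genes that fell, 3 of 26 markers of pachytene spermatocytes fell and 0 rose (median −0.20). Among 22 markers of early meiotic spermatocytes 1 fell and 0 rose (median −0.15). Their summed signal was 61331 and 68574 at 12 h, against 71205 and 72764 in controls, for the pachytene list. For the early meiotic list it was 16841 and 19540 at 12 h, against 18996 and 20641 in controls, with overlapping arrays. Sycp2, the early meiotic gene that fell, codes for a protein of the synaptonemal complex and had 681 and 1127 at 12 h, against 1695 and 1598 in controls (−0.90, SE 0.22, adjusted p = 0.0291). Its change came to −0.54 without replicate 1 of 12 h (adjusted p = 0.238), and its adjusted p was 0.129 and 0.0872 without either control. The pachytene genes that fell were Piwil1, given above, Ccdc38 and Ovol1. Ccdc38, a coiled-coil protein of the sperm tail, changed by −0.86 (adjusted p = 0.0245), and Ovol1, a zinc finger factor of spermatocytes, by −0.47 (adjusted p = 0.0291). Ovol1 lost its call in all 4 fits without 1 array, and Ccdc38 in 3 of them. The changes ran from −0.59 to −0.34 for Ovol1 and from −0.96 to −0.77 for Ccdc38. Without replicate 1 of 12 h no member of the pachytene list was called, and the adjusted p of Ccdc38 and Ovol1 was 0.157 and 0.0548.

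Counts of called spermatid markers can be read against the 3.80% of all genes that rose and the 3.20% that fell. Of 27 genes of round spermatids 0 rose and 1 fell, Acrbp (−0.48, adjusted p = 0.0449), the binding protein of proacrosin. Its call was lost in 3 of the 4 fits without 1 array, with changes from −0.64 to −0.33. Of 24 genes of elongating spermatids 2 rose and 0 fell, namely Fscn3 (0.58) and Spata18 (0.45), and both were uncalled in each fit without 1 array, with adjusted p up to 0.194 and 0.128. The summed signal of the elongating list was 127657 and 142934 at 12 h, against 127197 and 131252 in controls. Among 19 genes of spermatogonia 1 rose and 1 fell. Ccnd2, the cyclin D of dividing spermatogonia and of several somatic cells, had 257 and 225 at 12 h, against 108 and 96.6 in controls (1.12, SE 0.13, adjusted p = 0.000692). Sohlh1, a factor of differentiating spermatogonia, had 17.5 and 19.7 at 12 h, against 41 and 43.9 in controls (−0.76, SE 0.14, adjusted p = 0.00932). That call was lost in 2 of the 4 fits without 1 array, with changes from −0.80 to −0.71. Kit, a receptor of differentiating spermatogonia, had 39.1 and 44.4 at 12 h, against 123 and 75.2 in controls, and was not called (−0.97, adjusted p = 0.0614). Among 27 genes of mitotic and meiotic division 0 were called in either direction, with a median of −0.20.

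In somatic cells of the testis the 2 largest opposite changes lay within the list of Leydig cells, which make testosterone. Star, the protein that brings cholesterol into mitochondria, had 988 and 932 at 12 h, against 304 and 301 in controls (1.61, SE 0.22, adjusted p = 0.00137). Hsd3b1, a later enzyme of the same pathway, had 210 and 200 at 12 h, against 496 and 474 in controls (−1.18, SE 0.21, adjusted p = 0.00696; −1.21 with adjusted p = 0.0524 without replicate 1 of 12 h). The other probe sets of Star gave 1.64 and 1.42. Cyp11a1, the enzyme between them, had 672 and 619 at 12 h, against 438 and 483 in controls and was not called (0.47, adjusted p = 0.0735). Its other probe sets gave −0.17 and −0.63, so the probe sets of Cyp11a1 disagreed. Of the 10 Leydig genes tested 1 rose, 1 fell and 8 were uncalled, where 3.80% of all genes rose and 3.20% fell. The summed signal of the list was 8917 and 8371 at 12 h, against 7720 and 7903 in controls.

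Sertoli cells, which nurse the germ cells, had 4 of 22 markers higher and 1 lower, with a median of 0.16. The shares over all genes were 3.80% higher and 3.20% lower. Vim, the intermediate filament protein vimentin, which other somatic cells also make, had 1486 and 1262 at 12 h, against 615 and 607 in controls (1.14, SE 0.14, adjusted p = 0.000752). It was the only one of the list called whichever array was left out. Sox9, the factor that sets Sertoli identity, had 196 and 147 at 12 h, against 98.7 and 85.5 in controls (0.78, SE 0.15, adjusted p = 0.0112). That call was lost without replicate 1 of 12 h (0.59, adjusted p = 0.116) and without replicate 2 of the controls (0.70, adjusted p = 0.0688), and its other probe sets gave 0.93 and −0.12. Clu, a secreted chaperone, had 5870 and 5811 at 12 h, against 4496 and 4415 in controls (0.39, SE 0.10, adjusted p = 0.032), and lost its call in all 4 fits without 1 array (adjusted p up to 0.149). Inhbb, a subunit of inhibin B, had 89.7 and 89.3 at 12 h, against 160 and 138 in controls (−0.65, SE 0.15, adjusted p = 0.0215). It lost its call in 3 of the 4 fits without 1 array, with changes from −0.74 to −0.55.

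Over all genes 3.80% rose and 3.20% fell, and the counts of junction, myoid and endothelial genes stand against these shares. Of 18 genes of the blood-testis barrier 2 rose and 0 fell. Ctnna1, alpha-catenin, had 855 and 823 at 12 h, against 412 and 443 in controls (0.95, SE 0.16, adjusted p = 0.00449), a call that held whichever array was left out. Ctnnb1, beta-catenin, changed by 0.53 (adjusted p = 0.0329) and lost its call in all 4 such fits, with adjusted p up to 0.145. Among 14 genes of peritubular myoid cells 1 rose. Col4a1, a collagen of the basement membrane, had 330 and 283 at 12 h, against 103 and 102 in controls (1.44, SE 0.15, adjusted p = 0.000318). The contractile markers Acta2 (0.36) and Tagln (0.68) were not called (adjusted p = 0.111 and 0.0824). In 13 endothelial genes 2 rose, Esam (0.96, adjusted p = 0.0171) and Kdr (0.80, adjusted p = 0.0325). Of the 4 fits without 1 array, Esam lost its call in 2 (changes 0.75 to 1.17) and Kdr in all (0.63 to 0.96).

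Markers of cells that enter or surround the testis were examined as well, in lists of which some held too few genes to set against the 7.00% called over all genes. Of 21 markers of macrophages and leukocytes 1 rose and 1 fell, and their summed signal was 2467 and 2319 at 12 h, against 2298 and 2142 in controls. Cd14, a receptor for bacterial lipopolysaccharide, had 144 and 111 at 12 h, against 50.1 and 26 in controls (1.43, SE 0.24, adjusted p = 0.00442; 1.27 with adjusted p = 0.0594 without replicate 1 of 12 h). Mrc1, the mannose receptor of resident macrophages, had 143 and 200 at 12 h, against 296 and 280 in controls (−0.72, SE 0.18, adjusted p = 0.0308). Its call was lost in 3 of the 4 fits without 1 array, with changes from −0.94 to −0.50. The 6 neutrophil genes tested summed to 196 and 100 at 12 h, against 164 and 96 in controls, and 0 were called. None of the 2 red blood cell, 5 epididymal and 5 adipose genes tested was called either, with summed signals of 95 and 39, 116 to 129 and 350 to 380 at 12 h, against 73 and 86, 126 to 132 and 345 to 429 in controls. The part of these cells in the changes above was not tested.

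In the remaining lists, too, calls stand against 7.00% over all genes. Of 27 genes of hypoxia and glycolysis 2 rose and 1 fell, and Pgk1, the glycolytic kinase of somatic cells, had 366 and 441 at 12 h, against 154 and 171 in controls (1.23, SE 0.15, adjusted p = 0.0008). Aldoa rose by 0.63 and Pdk1, which closes pyruvate off from mitochondria, fell by 0.63. Of the 4 fits without 1 array, Aldoa lost its call in 3 (changes 0.51 to 0.74) and Pdk1 in all (−0.72 to −0.55). Among 23 DNA repair genes Brca1 rose (0.57) and Xrcc4 fell (−0.85). Brca1 lost its call in all 4 such fits (changes 0.53 to 0.61) and Xrcc4 in 3 (−1.10 to −0.60). Of 18 interferon-stimulated genes 1 rose, Ifi35 (0.66, adjusted p = 0.0445), and of 16 genes of cholesterol synthesis 1, Dhcr7 (0.62, adjusted p = 0.0419). Ifi35 lost its call in all 4 such fits (changes 0.47 to 0.85) and Dhcr7 in 3 (0.48 to 0.76). Of 14 genes of MHC and antigen presentation 0 were called. Cirbp, a protein that cold induces, had 322 and 292 at 12 h, against 406 and 322 in controls, and was not called (−0.23, adjusted p = 0.371).

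Between 12 h and the earlier time of 10 h, 317 genes were called (2.01%), 208 higher (1.32%) and 109 lower (0.692%) at 12 h. Both times are compared with each other here and not through the controls. The ratio of 3′ to 5′ signal moved with this comparison. For actin it was 2.74 and 2.62 at 12 h, against 1.87 and 1.99 at 10 h, and for Gapdh 1.28 and 1.29 at 12 h, against 1.07 and 1.08 at 10 h, and its part in these calls was not tested. This count rests on single arrays more than the one above, since it was 2 without replicate 1 of 12 h, 92 without replicate 2 of 12 h, 57 without replicate 1 of 10 h and 19 without replicate 2 of 10 h. Tnfrsf12a had 281 and 188 at 12 h, against 82.1 and 31.9 at 10 h (1.84, SE 0.36, adjusted p = 0.0285). Cdkn1a had 668 and 521 at 12 h, against 220 and 133 at 10 h (1.69, SE 0.26, adjusted p = 0.0153). Star had 988 and 932 at 12 h, against 521 and 337 at 10 h (1.16, SE 0.22, adjusted p = 0.0242), and Hsd3b1 had 210 and 200 at 12 h, against 464 and 608 at 10 h (−1.31, SE 0.21, adjusted p = 0.0184). The arrays of both times were apart in each of these 4 genes, and how often that held over all genes was not counted. Other probe sets gave 1.36 for Tnfrsf12a, 0.35 for Cdkn1a, and 0.15 and 0.43 for Star. The inducible Hsp70 genes differed the other way, without being called. Hspa1b had 2874 and 1597 at 12 h, against 4400 and 4419 at 10 h (−1.04, SE 0.66, adjusted p = 0.428). Of the 24 heat shock chaperones 1 rose, Hspe1 (0.99, adjusted p = 0.0261), a call lost in all 4 fits without 1 array.

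The other genes named between these times were those with the largest called differences. Aplnr, the receptor of the peptide apelin, had 40.3 and 42.3 at 12 h, against 0.676 and 0.415 at 10 h (1.79, SE 0.23, adjusted p = 0.00719), where control arrays had 22.4 and 13.8. Maf (1.69) and Slc40a1 (1.66), a transcription factor and the iron exporter of macrophages, were called higher as well, with adjusted p of 0.0261 and 0.0201. Their other probe sets gave 0.02, 0.13 and 0.12 for Maf and 0.30 for Slc40a1, so each rise rests on 1 probe set. Among the falls, Cd52, a surface peptide of leukocytes and epididymis, had 20 and 20.9 at 12 h, against 286 and 324 at 10 h (−3.13, SE 0.52, adjusted p = 0.0194), and 35.5 and 20.4 in controls. Both 10 h arrays thus stood above every array of the other 2 groups in Cd52. Smc4, a condensin subunit, had 917 and 826 at 12 h, against 2702 and 3293 at 10 h (−1.76, SE 0.18, adjusted p = 0.00341), with 1364 and 2050 in controls. Spink10 (−1.62), Catsperg1 (−1.62) and Ccdc14 (−1.57) were the other named falls, with adjusted p of 0.035, 0.00719 and 0.0449. Of the 13 genes given here as called between 12 h and 10 h, Smc4 alone kept its call whichever array was left out. The number still called was 1 without replicate 1 of 12 h, 5 without replicate 2 of 12 h, 7 without replicate 1 of 10 h and 3 without replicate 2 of 10 h. Cdkn1a was uncalled without replicate 1 of 12 h and without replicate 2 of 10 h, Star, Hsd3b1 and Tnfrsf12a stayed called only without replicate 1 of 10 h, and Cd52, Maf, Spink10 and Ccdc14 lost the call in all 4 fits, alternatives looked at for these genes after seeing the data.

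**Figure D3:**
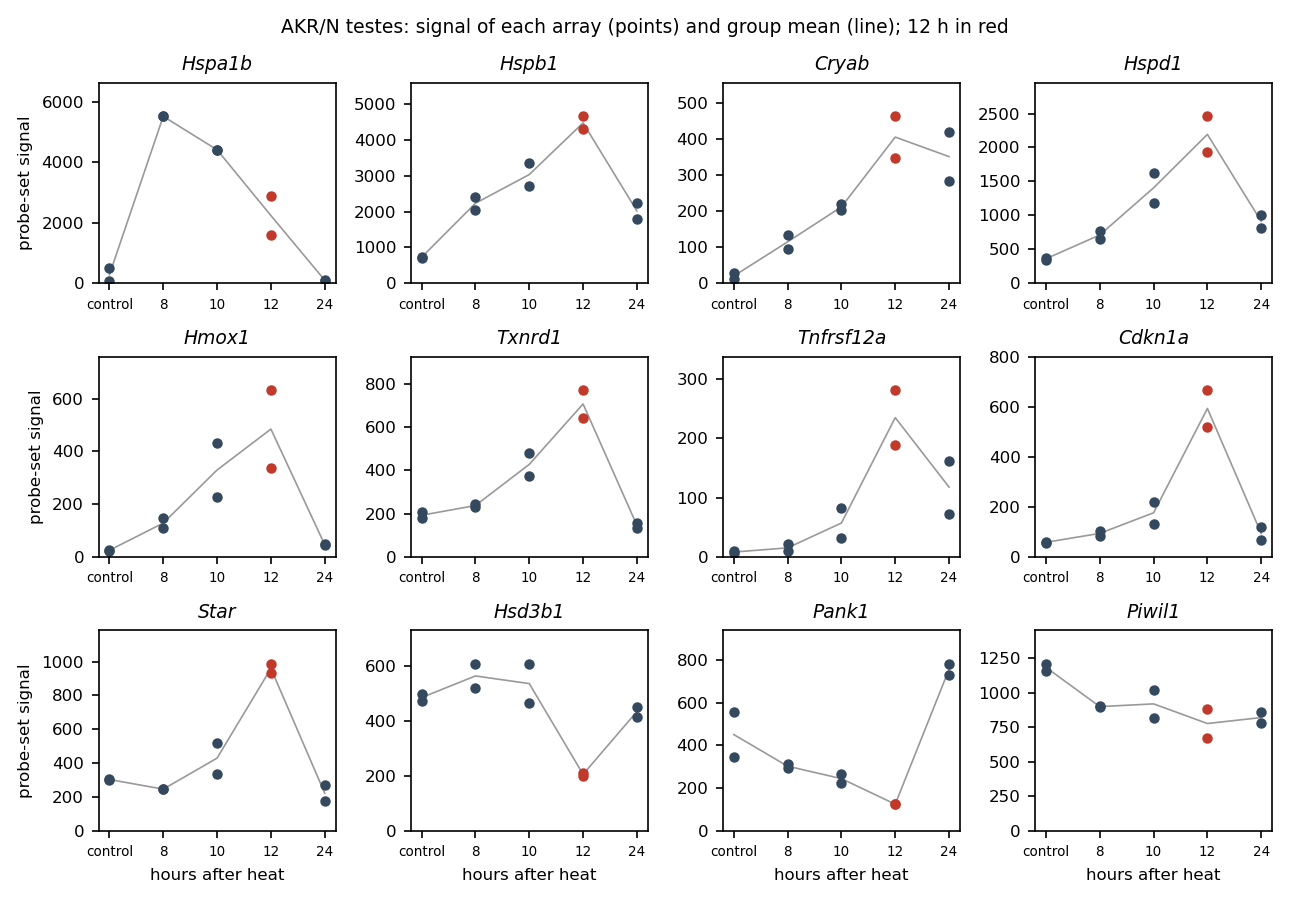
Probe-set signal of 12 genes in every AKR/N array, for controls and for 8, 10, 12 and 24 h after heat; points are arrays, the grey line joins group means and 12 h is red. Hspa1b is highest at 8 h, Cdkn1a, Star and Txnrd1 are highest at 12 h, and Cryab stays high at 24 h with signals of 282 and 419.

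At 24 h, 1588 genes were called against 12 h (10.1%), 975 higher (6.19%) and 613 lower (3.89%) at 24 h. The count was 253 without replicate 2 of 24 h, 362 without replicate 1 of 12 h, 979 without replicate 1 of 24 h and 1215 without replicate 2 of 12 h. The ratio of 3′ to 5′ signal was 2.14 and 2.17 at 24 h, against 2.74 and 2.62 at 12 h, for actin, and 1.05 and 0.993 at 24 h, against 1.28 and 1.29 at 12 h, for Gapdh, so that the arrays did not overlap. Its part in these calls was not tested. Of the 24 heat shock chaperones 10 fell and 0 rose. Hspa1b had 78.3 and 116 at 24 h, against 2874 and 1597 at 12 h (−4.27, SE 0.66, adjusted p = 0.00238). Hspa8 had 1753 and 1889 at 24 h, against 5288 and 5189 at 12 h (−1.52, SE 0.11, adjusted p = 2.11e-05). Both genes at 24 h lay close to the control signals given above. Cryab differed from them: it had 282 and 419 at 24 h, against 462 and 347 at 12 h, and the times overlapped (−0.21, SE 0.23, adjusted p = 0.602). Hspd1 (−1.25), Hspe1 (−1.13) and Hspb1 (−1.15) fell, with adjusted p of 0.00126, 0.00341 and 0.000992, and their 24 h arrays were above both controls, Hspb1 for example with 1800 and 2237.

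Of the 21 p53 targets 7 fell and 2 rose at 24 h against 12 h, where 3.89% of all genes fell and 6.19% rose. Cdkn1a had 68.7 and 119 at 24 h, against 668 and 521 at 12 h (−2.50, SE 0.26, adjusted p = 0.000232), while Ccng1 had 274 and 431 at 24 h, against 424 and 332 at 12 h (−0.12, SE 0.22, adjusted p = 0.765). Hmox1 had 43.2 and 48.8 at 24 h, against 633 and 337 at 12 h (−2.95, SE 0.40, adjusted p = 0.00117), and Atf3 fell by 2.57 on the log2 scale (adjusted p = 0.0204), a call lost in 3 of the 4 fits without 1 array (adjusted p up to 0.173). Star had 174 and 269 at 24 h, against 988 and 932 at 12 h (−2.07, SE 0.22, adjusted p = 0.000237), and Hsd3b1 had 415 and 452 at 24 h, against 210 and 200 at 12 h (1.02, SE 0.21, adjusted p = 0.0107; uncalled without replicate 1 of 12 h, adjusted p = 0.0625, and without replicate 2 of 24 h, 0.0997). Both Leydig genes at 24 h were thus within reach of their controls. Pank1 had 733 and 783 at 24 h, against 124 and 123 at 12 h (2.47, SE 0.21, adjusted p = 5.55e-05), and Kctd14 had 312 and 235 at 24 h, against 46 and 30.5 at 12 h (2.42, SE 0.32, adjusted p = 0.00107). The other probe sets of Kctd14 disagreed, with 0.12, −0.34 and 2.16. Diaph2, a formin, had 499 and 484 at 24 h, against 75.8 and 75.1 at 12 h (2.47, SE 0.18, adjusted p = 1.98e-05). A530020G20Rik changed by 2.11 (adjusted p = 0.00128), and its other probe sets gave 1.02 and 0.10. Dbp, a transcription factor driven by the circadian clock, had 355 and 383 at 24 h, against 81.3 and 63.6 at 12 h (2.13, SE 0.24, adjusted p = 0.00042), and clock time and time after heat cannot be told apart here. Piwil1 had 777 and 861 at 24 h, against 671 and 880 at 12 h, with overlapping arrays (0.09, adjusted p = 0.781).

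C57BL/6 testes heated in the same way gave 3010 calls at 12 h against their own controls, 1531 higher (9.71%) and 1479 lower (9.38%). Replicate 2 of C57BL/6 at 12 h stood apart, with a 3′ to 5′ ratio of actin of 3.57, against 2.52 in replicate 1 and 2.14 and 2.46 in the C57BL/6 controls, a ratio of Gapdh of 1.80, a median signal of 34.9 and the lowest correlation between replicates of the 10 groups (r = 0.970). Without it C57BL/6 gave 1716 calls, without replicate 1 of 12 h 2588, and without replicate 1 or 2 of its controls 1422 and 1194, in fits chosen after seeing the data. Of the 599 genes higher in AKR/N, 423 were called higher in C57BL/6, and of the 504 lower in AKR/N, 335 were called lower there, and these shared calls came to 360 and 264 without replicate 2 of C57BL/6 at 12 h. With all arrays the shared calls are 70.6% and 66.5% of the AKR/N calls in each direction, and 27.6% and 22.7% of the C57BL/6 calls. The change had the same sign in both strains for 1058 of the 1103 and the other sign for 45. Across genes the changes correlated with r = 0.58 over the 15762 genes and 0.88 over the 1103, a description in which genes are not independent and the choice of called genes raises r. No gene was called in the test of the difference itself, the heat effect of AKR/N minus that of C57BL/6 (0 of 15762 by limma, 1477 at an unadjusted p under 0.05).

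**Figure D4:**
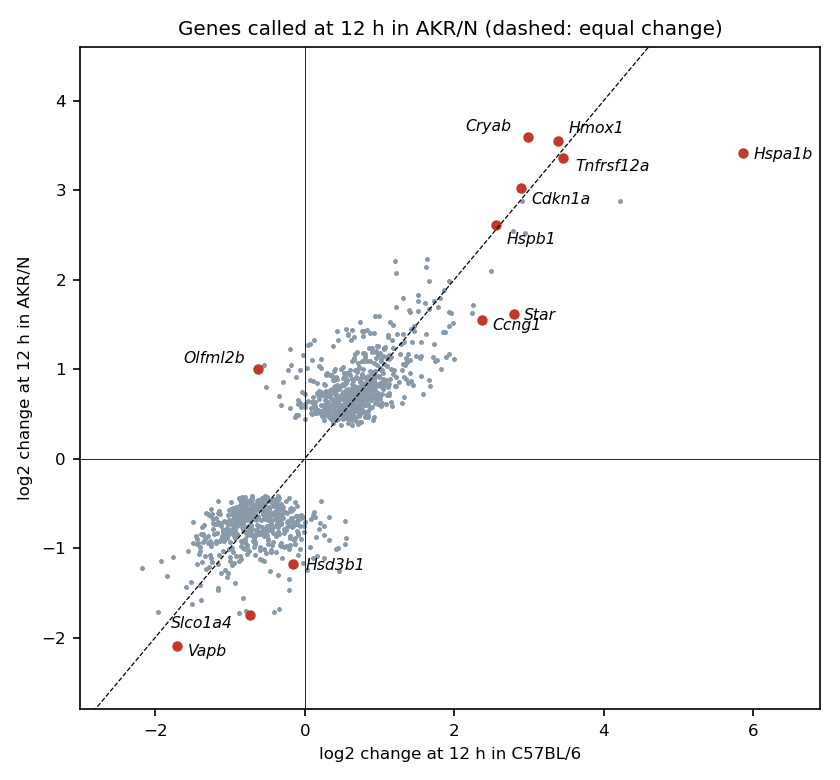
Log2 change at 12 h over control in AKR/N (vertical axis) and in C57BL/6 (horizontal axis) for the 1103 genes called in AKR/N; named genes are red and the dashed line marks equal change. Most points lie in the quadrants of equal sign, Hspa1b and Star lie to the right of the line, and Olfml2b and Hsd3b1 lie away from it.

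Some members had unlike values in the strains, although no difference between strains was called. Hspa1b changed by 3.41 in AKR/N and by 5.86 in C57BL/6, where signals were 2259 and 6071 at 12 h, against 58.1 and 39.1 in controls, and the unadjusted p of the difference was 0.02. The gap depends on single arrays: with 1 array left out, the change ran from 2.08 to 4.74 in AKR/N and from 5.15 to 6.57 in C57BL/6. Star changed by 1.61 in AKR/N and 2.80 in C57BL/6, where it had 745 and 582 at 12 h, against 87 and 75.7 in controls (unadjusted p = 0.0018). Its 12 h signals were thus no lower in AKR/N than in C57BL/6, and its control signals were higher in AKR/N. Hsd3b1 changed by −1.18 in AKR/N and −0.15 in C57BL/6, where it had 245 and 228 at 12 h, against 275 and 255 in controls (unadjusted p = 0.0043). Egr1 changed by 0.91 in AKR/N and by 3.42 in C57BL/6 (unadjusted p = 0.028), and its AKR/N controls of 461 and 214 were above the C57BL/6 controls of 66 and 69.5. With 1 C57BL/6 array left out, its change there ran from 2.46 to 4.38. That of Star moved less, from 1.57 to 1.66 in AKR/N and from 2.62 to 2.97 in C57BL/6. Cdkn1a (3.03 and 2.89), Hspb1 (2.61 and 2.56), Tnfrsf12a (3.36 and 3.46) and Hmox1 (3.55 and 3.39) had near-equal changes in AKR/N and C57BL/6.

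List counts at 12 h stood side by side as follows. Heat shock chaperones had 10 of 24 called higher in AKR/N and 14 in C57BL/6, and p53 targets had 9 of 21 in AKR/N and 11 in C57BL/6. Immediate early and inflammatory genes had 5 of 27 in AKR/N and 14 in C57BL/6, and interferon-stimulated genes had 1 of 18 in AKR/N and 8 in C57BL/6. Genes of division had 0 of 27 called lower in AKR/N and 10 in C57BL/6, and the piRNA list had 4 of 17 called lower in AKR/N and 6 in C57BL/6. AKR/N had fewer calls over all genes as well, 7.00% against 19.1% in C57BL/6, and the differences between these counts were not tested.

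The 3 genes per direction with the smallest unadjusted p of the difference were named, whatever the size of the difference. They were 1700104B16Rik (1.24), Olfml2b (1.62) and Zfp688 (1.76) on the positive side, and Pgpep1 (−1.52), Mndal (−1.43) and Aldh18a1 (−1.04) on the negative side. None was called, with adjusted p of 0.121 for 1700104B16Rik and 0.215 for the other 5. Zfp688, a zinc finger protein, had 61 and 68.2 at 12 h, against 112 and 116 in controls in AKR/N, and 5.72 and 13.6 at 12 h, against 108 and 138 in controls in C57BL/6. Aldh18a1, which makes proline, had 84.3 and 88.3 at 12 h, against 69.8 and 66 in controls in AKR/N, and 92.6 and 121 at 12 h, against 29.4 and 35.9 in controls in C57BL/6. Mndal, an interferon-inducible gene, was dim in all 4 AKR/N arrays, while in C57BL/6 it had 63.9 and 85.3 at 12 h, against 16.5 and 17.3 in controls.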

How the data were processed

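The authors deposited intensity values, a signal for each of 45101 probe sets on 20 arrays. Software and scaling were not given in the sources used here, and every array has the same trimmed mean of 125.001. Signals were taken as log2(signal + 16). The probe set with the highest mean stood for each gene. Symbols come from the chip annotation, and probe sets of several genes (932) or none (9160) were left out. Genes were tested when their highest group mean reached the 40th percentile of all probe sets (log2 5.07), which left 15762. A mean for each of the 10 groups was fitted to all 20 arrays with limma 3.58.1 in R 4.3.3 (data.table version 1.17.8), with empirical Bayes moderation and Benjamini-Hochberg adjustment over all genes, and was tested on simulated data. Matplotlib 3.10.9 and pandas 2.3.3 in Python 3.11.15 made plots and the promoter search.

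Named genes were, for 12 h against control, the 12 largest called changes in each direction among genes with groups that did not overlap, up to 4 members of each of 32 lists with the smallest adjusted p, and 23 fixed stress and germ cell genes, 22 of which were tested. Up to 5 per direction were named for 12 h against 10 h and 24 h against 12 h, and 3 per direction for the difference between strains. Members and lists were chosen with earlier results of these data known. Members of a list without a row in the annotation were not analysed here. The labels do not say whether replicate numbers pair samples, and the main fit used no pairing. Deviations of same-numbered arrays correlated with r = −0.28 to 0.30 over 45 pairs of groups, above 0.1 in 4 of them. Between AKR/N 12 h and control r was 0.07, and between AKR/N 12 h and 10 h 0.17. These values cannot settle whether some arrays were paired. The small number of arrays limits the precision.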

Additional observations from a re-analysis of the deposited data

Results flagged for a closer look

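In 5 named genes every AKR/N array at 12 h lay on one side of its controls and every C57BL/6 array on the other side of its own. The difference was tested by limma in each and called in none. How many of all genes showed this pattern was not counted, so it is no more than a description. Of the 5, 1700104B16Rik, Olfml2b and Pgpep1 had been named for a small unadjusted p of this same difference. In 1700104B16Rik the AKR/N controls were dim. 1700104B16Rik changed by 0.23 in AKR/N, with 21.7 and 18 at 12 h, against 14.3 and 14.9 in controls, and by −1.02 in C57BL/6, with 499 and 460 at 12 h, against 1010 and 964 in controls (difference 1.24, adjusted p = 0.121). Olfml2b changed by 0.998 in AKR/N and −0.62 in C57BL/6 (1.62, adjusted p = 0.215). Pgpep1 changed by −0.45 in AKR/N and 1.06 in C57BL/6 (−1.52, adjusted p = 0.215), and its other probe sets gave −0.12 and 0.77 in AKR/N. Pdk1 changed by −0.63 in AKR/N and 0.11 in C57BL/6 (−0.75, adjusted p = 0.414), and Srsf5 by 0.35 in AKR/N and −0.22 in C57BL/6 (0.56, adjusted p = 0.452). Groups of 2 arrays were too small for a search for single outlying arrays.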

How the results depend on the processing

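The 1103 calls at 12 h became 1656 with a pseudocount of 64 (817 lower), 660 with each array centred on its median (372 higher, 288 lower), 1657 with an intensity trend in the moderation (794 lower) and 9 with only the 4 arrays in the fit (8 higher, 1 lower). Leaving out 1 array gave 171 to 878 calls, 112 to 399 of them higher and 59 to 479 lower. With a replicate block they were 977, and 3 of the named results lost their call. The difference between strains gave 1 call with a pseudocount of 64, 1 with a filter at the 60th percentile and 0 to 1 without 1 array. The 317 calls of 12 h against 10 h became 196 with a pseudocount of 4, 700 with one of 64, 590 with the stricter filter, 120 with median centring, 676 with the trend, 196 with the replicate block, 1 with its own arrays only and 2 to 92 without 1 array. The 1588 calls of 24 h against 12 h became 2 with their own arrays only and 253 to 1215 without 1 array. Of 78 genes named for 12 h against control and called there, 7 kept the call under every alternative. Directions of called genes turned only at other probe sets: Brca1 −0.17, Cryab −0.0064, Gadd45b −0.0046, Kctd14 0.17 and 0.079, Psmd11 −0.046 and −0.28, Sox9 −0.12, Vapb 0.39 and 0.28, and Xbp1 −0.12. Sign changes of genes uncalled in both fits were not counted. For each of these the cause was not tested. Signals near or under 17.5 limit what can be said of dim genes.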
